A study of Homo sapiens with 8 samples.

Results

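A set of 9381 p63-bound regions was listed in the squamous carcinoma line CAL27 and overlapped no region listed in the line SCC13. Members were chosen by the listed coordinates: a CAL27 row was kept where it shared not even 1 bp with an SCC13 row. They made up 67.8% of the 13829 CAL27 regions (95% exact binomial interval 67.0 to 68.6) and 61.4% of the 15267 regions found in either list (60.7 to 62.2). The other CAL27 regions, 4448, were also listed in SCC13 and are called shared, and 1438 regions were listed in SCC13 only. Membership came from the peak lists themselves, so the total number of members is a description and was not tested; the tests below compare places within the CAL27 list.

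The transcription factor p63, encoded by TP63, belongs to the p53 family and binds DNA through elements like those of p53. It establishes and maintains the basal layer of stratified epithelia such as skin and oral mucosa, where it acts on genes of keratins, desmosomes and hemidesmosomes. Many squamous carcinomas keep or amplify it. Most of its binding sites lie in enhancers away from gene starts, so a difference in a list of p63 regions usually concerns distal elements.

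CAL27 is an established tongue squamous carcinoma line and SCC13 an established skin squamous carcinoma line, and both were labelled wild type and untreated. Chromatin was crosslinked with 1% formaldehyde for 10 min and precipitated with 10 ug of p63 antibody. Each line contributed 2 p63 immunoprecipitations and 2 samples with the title none, 8 samples in all, and had 1 deposited list standing for both p63 replicates. CAL27 cells grew in serum-containing DMEM F:12, whereas SCC13 cells grew in serum-free keratinocyte medium with pituitary extract, EGF and calcium, so line and medium cannot be told apart. Neither depth nor any score per region was part of the lists, no spread between replicates could be computed, and a region missing from the SCC13 list is not shown to be unbound there. The labelled cell type could not be checked against markers, since no expression was measured.

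Overlap between the lists was all or none. All 4448 SCC13 regions that overlapped a CAL27 region had the same start and end in both lists, so no CAL27 region overlapped an SCC13 region in part. This is a property of the listed coordinates, and it does not show that members and shared regions lay apart along the genome. The nearest member, chr1:175189909-175190939 of band 1q25.1, lay 102 bp from a shared region, chr1:175191042-175192028. The next closest lay 143 bp away in band 1q41 and 147 bp away in band 1p36.12. Of the 10 closest members, all within 243 bp, 9 flanked a shared region and 1 flanked an SCC13-only region, in band 6q23.3, the band of the desmosome-associated gene PERP. In all, 56 members came within 500 bp of an SCC13 region, and for 49 of these the neighbour was shared. Most SCC13 regions were shared in any case, 4448 of 5886. These close pairs were separate entries of the list, and whether the 2 entries are parts of 1 broader bound site was not tested.

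In the deposited lists, CAL27-only regions were narrower than shared regions and wider than SCC13-only regions. Because a shared region had the same coordinates in both lists, its width may not be that of CAL27 binding alone, and whether coordinates were merged across the lines is not given in the sources used here. Widths below, and the tests within width groups, therefore may not be independent of membership. Their median width was 723 bp, with quartiles of 571 and 951 bp, against 934 bp (746 and 1194) for shared and 589.5 bp for SCC13-only regions. Together the members covered 7.48 Mb, or 62.3% of the bases of the CAL27 list. The narrowest member spanned 126 bp on chromosome 2 at 9319301 to 9319426, and 93 members were narrower than the narrowest shared region of 349 bp. At the other end, 337 members (3.59%) were 1500 bp or wider, against 483 shared regions (10.9%).

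The share of CAL27 regions that were CAL27-only fell in every step from the narrowest to the widest of 10 width groups. Of 1389 regions of 126 to 502 bp, 1317 were CAL27-only, or 94.8% (95% exact interval 93.5 to 95.9). Between 716 and 791 bp the share was 67.7% (65.2 to 70.2), the level of the whole list. From 1339 bp upward it was 45.8% (43.1 to 48.4), or 632 of 1381 regions. The widest group thus still held many regions that were not listed in SCC13. Width is not binding strength, and no score was available to set beside it.

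**Figure D1:**
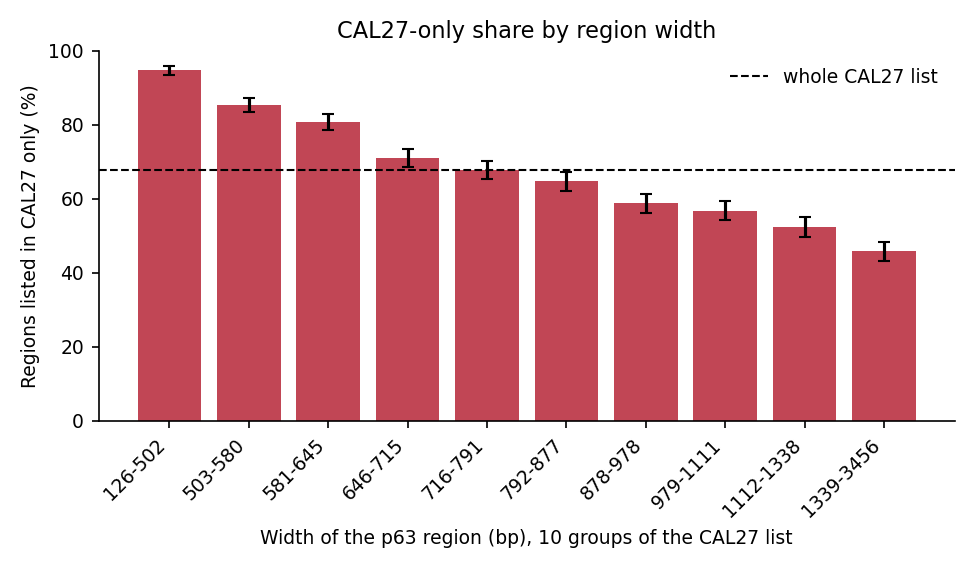
Percentage of CAL27 p63 regions listed in CAL27 only (vertical axis) in 10 groups of region width in bp (horizontal axis); bars are shares, whiskers 95% exact binomial intervals, and the dashed line the 67.8% of the whole list. The share falls from 94.8% in the narrowest group to 45.8% in the widest.

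The widest members, like all members, overlapped no SCC13 row by the rule, so only their widths and positions are described here. The widest, of 3234 bp, lay in band 17q23.2 on chromosome 17 at 60745713 to 60748946, and its nearest SCC13 region, a shared one, was 52.7 kb away. The next, of 3223 bp, lay in band 16q24.2 on chromosome 16 at 87885100 to 87888322, 43.7 kb from a shared region. That band holds SLC7A5, a transporter of large neutral amino acids. Others of the 10 widest lay in 6p21.31 (2638 bp), 11p13 (2611 bp), 11p15.4 (2512 bp), 8q24.13 and 11q23.3 (2433 bp each), 4p14 (2417 bp) and 8q24.3 (2389 bp).

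A further member of 2393 bp in band 1p36.11, on chromosome 1 at 27184127 to 27186519, stood 783 bp from a shared region of 2394 bp. Band 1p36.11 holds SFN, the 14-3-3 sigma gene that restrains the cell cycle, and GRHL3, a regulator of epidermal barrier formation. Among the 10 widest members this was the only one within 10 kb of an SCC13 region. The other distances ran from 19.4 kb, in band 8q24.3, to 394.7 kb, in band 11p13.

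Members were spread among the shared regions rather than set apart from them. The median distance from a member to the nearest shared region was 135.4 kb, with quartiles of 44.0 and 342.8 kb. From a shared region to the next nearest shared region it was 115.8 kb, and from an SCC13-only region to a shared one 221.0 kb. Of the members, 42.3% lay within 100 kb of a shared region, against 46.0% of shared and 31.8% of SCC13-only regions. Within 10 kb the percentages were 7.86%, 10.1% and 5.91%. From a member to the nearest SCC13-only region the median distance was 650.7 kb, and the SCC13-only list is the shortest of the 3.

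**Figure D2:**
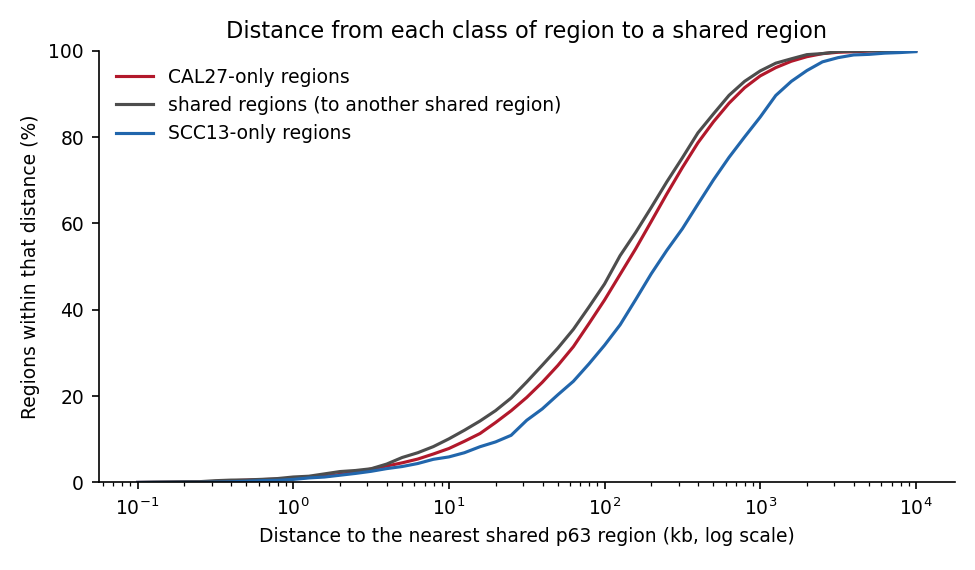
Percentage of regions (vertical axis) that have a shared p63 region within a given distance in kb (horizontal axis, log scale), for CAL27-only, shared and SCC13-only regions. The CAL27-only curve lies just right of the shared curve, with 42.3% and 46.0% reached at 100 kb, and left of the SCC13-only curve, with 31.8%.

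The class of one CAL27 region said little about the class of the next along the chromosome. After a member, the next region was also a member in 68.4% of 9364 cases, and after a shared region it was a member in 66.7% of 4442 cases. The difference was 1.72 percentage points (95% interval 0.044 to 3.40, normal approximation). From 12.5 to 500 kb each interval of the difference included 0: it was 0.23 points (-4.98 to 5.44) between 12.5 and 25 kb, 1.41 points (-3.04 to 5.86) between 25 and 50 kb, -1.49 points (-5.49 to 2.51) between 50 and 100 kb, and 1.14 points (-1.67 to 3.94) between 100 and 500 kb.

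At some short distances neighbours were more often alike in class. At 5 to 12.5 kb the next region was a member in 68.2% of cases after a member and in 59.0% after a shared region, a difference of 9.17 points (95% interval 3.14 to 15.2). Up to 2 kb the values were 70.7% and 55.0%, a difference of 15.7 points (1.49 to 29.9) that rests on 181 and 60 pairs. Between 2 and 5 kb the difference was 0.50 points (-7.76 to 8.76), so the pattern was not even over short distances. Pairs of regions share neighbours, which the intervals do not allow for.

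**Figure D3:**
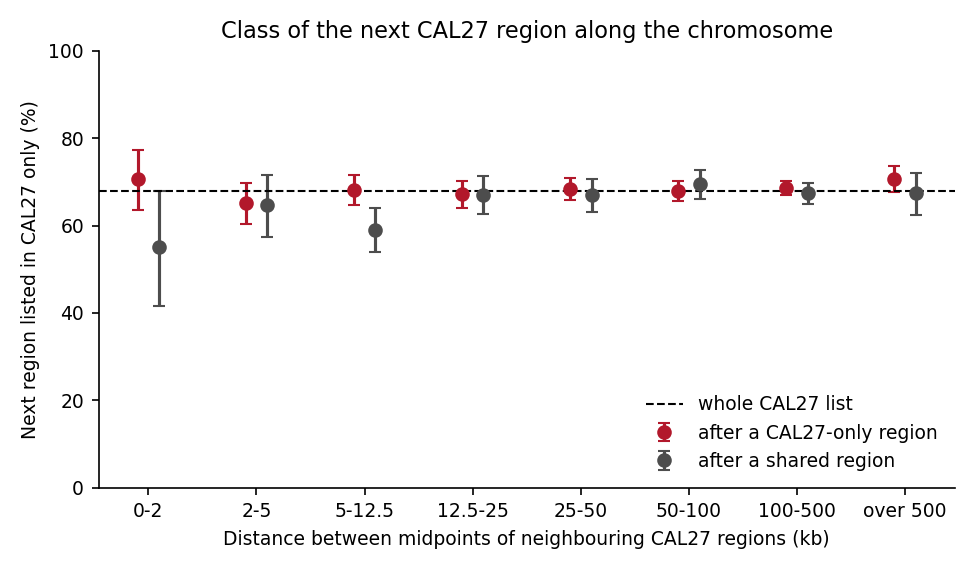
Percentage of CAL27 regions whose next region along the chromosome was CAL27-only (vertical axis), by the distance between midpoints in kb (horizontal axis), after a CAL27-only and after a shared region; whiskers are 95% exact binomial intervals and the dashed line is the whole list. Both series stay near 68% beyond 12.5 kb and part at 0 to 2 kb (70.7% and 55.0%) and 5 to 12.5 kb (68.2% and 59.0%).

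The most crowded places held a smaller share of members. CAL27 regions with no other CAL27 region within 50 kb were CAL27-only in 69.2% of 5776 cases (95% exact interval 68.0 to 70.4). With 1, 2 and 3 others the shares were 67.2%, 68.3% and 65.9%, so the fall was not even. With 4 others within 50 kb the share was 62.3% of 453 regions (57.6 to 66.7), and with 5 or more it was 62.3% of 297 regions (56.5 to 67.8). Width moved with crowding, since the median width rose from 754 bp with no neighbour to 911 bp with 5 or more. The part of width in this difference was not tested.

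Tight groups made up of members alone were few. Joining members with midpoints within 12.5 kb gave 8 groups of 4, and no group was larger. In 7 of the 8 no shared region lay between the members, and none held an SCC13-only region. The tightest, chr20:49045851-49056217, spanned 10.4 kb of band 20q13.13, with members of 556 to 1152 bp. That band also holds SNAI1, a repressor of epithelial cadherin. The second, chr6:56521722-56533555, spanned 11.8 kb of 6p12.1, where DST, the gene of a hemidesmosome linker of keratin filaments, is found.

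Groups also lay on chromosome 12 at 6381289 to 6397769 (12p13.31), on chromosome 7 at 105688561 to 105706127 (7q22.3) and on chromosome 1 at 6410374 to 6428672 (1p36.31). The remaining 3 were in 2q37.1, 3q26.31 and 7p22.3. That in 7p22.3, on chromosome 7 at 1491414 to 1515182, had a shared region of 1351 bp among members of 801 to 2048 bp. The widest single region of a group that held members only, 1978 bp, was in the 7q22.3 group.

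Some stretches of the CAL27 list ran without a shared region. Members formed 2978 uninterrupted runs with a median of 2 regions and a mean of 3.15, 987 of them a single region. There were 112 runs of 10 or more, which together held 1378 members. Members were 67.8% of the CAL27 list, and that share alone gives some long runs. Whether these runs were longer or more frequent than it gives was not tested. The longest run held 25 members over 2.37 Mb of band 9q21.33, on chromosome 9 at 86915126 to 89285667, with no SCC13-only region inside. In this band 28 of 31 CAL27 regions were CAL27-only (90.3%, 95% exact interval 74.2 to 98.0). It was named for its run, so this share is not separate evidence. The band did not pass after adjustment over bands (Fisher's exact test, adjusted p = 0.353), nor within width groups (exact Mantel-Haenszel test, adjusted p = 0.323).

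A run of 19 members crossed only 1.40 Mb in band 5q31.1, on chromosome 5 at 131792831 to 133194639, and no SCC13 region of any class lay within it. Band 5q31.1 holds IRF1, an interferon-responsive regulator, and the genes of several T helper cytokines. On chromosome 14 a run of 21 members at 35805746 to 40916805 reached from 14q13.2 to 14q21.1, where FOXA1, a forkhead pioneer factor, is found. This stretch also had no SCC13 region, and 1 of its members, at 38614322 to 38614928, was 2.93 Mb from the nearest SCC13 region. A run of 22 on chromosome 16 at 34829494 to 50950416 had 2 SCC13-only regions inside, and a run of 19 on chromosome 20 at 24613492 to 29611895 had 3. Both of these reached from the short to the long arm, so their length includes at least part of the centromere.

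Band 16q12.1 was the extreme of this kind: all 20 of its CAL27 regions were CAL27-only (95% exact interval 83.2 to 100), at chr16:48037123-50950416, a span of 2.91 Mb with no SCC13 region. These 20 regions are part of the run of 22 on chromosome 16 given above. The 3 SCC13-only regions of the band lay outside that span. The band holds CYLD, a deubiquitinase that restrains NF-kB signalling, and SALL1. Against all other regions the band missed the threshold after adjustment over bands (Fisher's exact test, adjusted p = 0.0760), and it passed within 10 groups of width (exact Mantel-Haenszel test, adjusted p = 0.0353).

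The 10 members farthest from any SCC13 region lay on 6 chromosomes. On X a member in Xq11.1 at 62406840 to 62407644 was 3.45 Mb from the nearest SCC13 region and a second at 62739027 to 62739808 was 3.12 Mb away. The second farthest of all, in 11q25 on chromosome 11 at 134136687 to 134137428, was 3.32 Mb away. Of the 10 farthest, 4 shared band 9q31.1 on chromosome 9, between 104052921 and 104270849, at 2.75 to 2.96 Mb from the same shared region. The span without an SCC13 region that was longest among those with CAL27 regions was 11.9 Mb on chromosome 16, with 2 members. The next was 8.48 Mb on chromosome 19, with 3 members, followed by 7.52 Mb on X with 9 members. The 5 longest were completed by 6.73 Mb on chromosome 4, with 7 members, and 6.15 Mb on chromosome 18, with 9 members. All but that on chromosome 4 reached from the short to the long arm. Those on chromosomes 19 and X held the whole centromere, and those on chromosomes 16 and 18 part of it. The span on chromosome 4 ended in 4p11, the short-arm band at the centromere.

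By chromosome, the CAL27-only share departed from the rest in 4 of 23 cases. The tests take every region as a separate observation, so their p-values are too small if neighbours are not. It was lower on chromosome 4, where 294 of 494 regions were CAL27-only (59.5%, 95% exact interval 55.0 to 63.9), against 68.1% elsewhere (Fisher's exact test, adjusted p = 0.00192). On chromosome 8 it was 62.4% (58.2 to 66.4), 350 members among 561 (adjusted p = 0.0410 by Fisher's exact test). Higher shares were found on chromosome 13, with 74.7% (278 of 372, 70.0 to 79.1), and chromosome 15, with 73.5% (352 of 479, 69.3 to 77.4), each at an adjusted p of 0.0410 by the same exact test. Of the 23 chromosomes tested, 8.7% were thus called higher and 8.7% lower. With neighbours within 12.5 kb counted once, chromosome 4 passed alone (Fisher's exact test, adjusted p = 0.0468), and it missed the threshold when an SCC13 region within 10 kb counted as a match (adjusted p = 0.0797, same exact test).

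Both arms of chromosome 4 had low shares, with 58.3% on 4p (49.6 to 66.6) and 60.0% on 4q (54.7 to 65.1). Chromosome 8 had 54.8% on 8p (44.2 to 65.2) and 63.9% on 8q (59.4 to 68.2). Chromosome 4 was also sparse, with 1.54 members per Mb, and only X was sparser, with 1.22. The densest was chromosome 17, with 4.98 members per Mb, followed by chromosome 20 with 4.38. These densities follow those of the whole list.

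Region width set some of these calls apart from others. Members on chromosome 4 had a median width of 612.5 bp, and narrow regions were mostly CAL27-only in the whole list. From its widths alone, with each region given the share of its width group, chromosome 4 would have had 72.9% CAL27-only regions, against the 59.5% counted. Within width groups it had the smallest adjusted p (6.73e-11, exact Mantel-Haenszel test), and chromosome 8 also passed (adjusted p = 0.0204). Chromosomes 13 and 15 no longer did (exact Mantel-Haenszel test, adjusted p = 0.0529 and 0.0964). X passed as lower within width groups, with 68.3% counted and 76.1% from its widths, although without width groups its share was above the 67.8% of the other chromosomes (exact Mantel-Haenszel test, adjusted p = 0.0113). Chromosomes 2 and 9 passed as higher, with 70.7% and 71.6% (adjusted p = 0.0113 and 0.0328 by the exact Mantel-Haenszel test). By that test 13% of the 23 chromosomes were called lower and 8.7% higher.

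**Figure D4:**
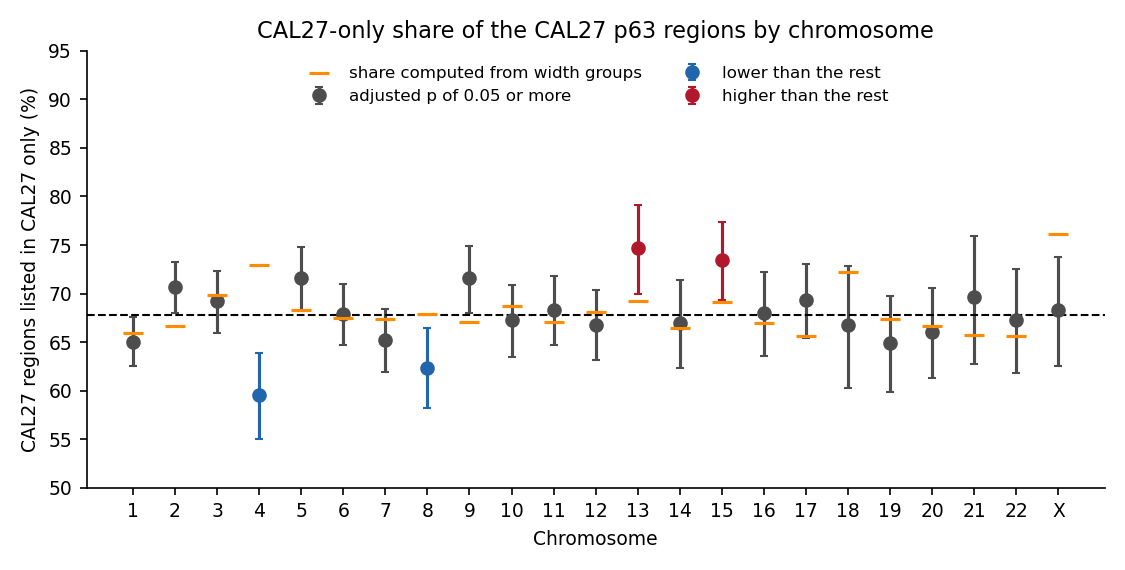
Percentage of CAL27 p63 regions listed in CAL27 only (vertical axis, cropped to 50 to 95%) on each chromosome (horizontal axis); points are shares with 95% exact binomial intervals, coloured by Fisher's exact test, orange marks the share computed from the widths, and the dashed line the whole list. Chromosomes 4 (59.5%) and 8 (62.4%) lie below the rest and 13 (74.7%) and 15 (73.5%) above; 4 and X lie well under their orange marks of 72.9% and 76.1%.

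At finer scale few places passed a test. Of 256 windows of 10 Mb with at least 20 CAL27 regions, 0 had a higher and 0 a lower share after adjustment, which is 0% called (Fisher's exact test, smallest adjusted p = 0.221). At an unadjusted p under 0.05 there were 17 windows, 8 higher and 9 lower. Window shares ran from 45% to 88% with a median of 68.1%. Within width groups 4 windows passed, all lower: 2 on chromosome 4 (1 to 10000000 and 70000001 to 80000000), 1 on chromosome 8 and 1 on chromosome 10 (exact Mantel-Haenszel test, adjusted p = 0.0453 for each), which is 1.56% called lower and 0% higher. Of the 5 Mb windows tested, 0.305% were called lower and 0% higher: the 1 that passed was chr1:150000001-155000000, with 23 members among 57 regions (40.4%, 27.6 to 54.2). Its adjusted p by Fisher's exact test was 0.00752.

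Most of that window is band 1q21.3, home of the epidermal differentiation complex, whose genes encode loricrin, involucrin, filaggrin, small proline-rich and S100 proteins of the cornified layer. Testing cytogenetic bands gave the same place, but with largely the same regions as the window, so it is not separate evidence. In 1q21.3, 23 of 56 regions were CAL27-only (41.1%, 28.1 to 55.0), against 67.9% elsewhere, with an adjusted p of 0.0116 by Fisher's exact test. It was the only 1 of 288 bands with at least 20 regions that passed, so 0.347% were called lower and 0% higher. The other 33 CAL27 regions of the band were shared with SCC13, and 3 regions there were SCC13-only. These counts cover the whole 4.7 Mb band, and which of its regions lie in the epidermal differentiation complex was not examined. Regions in 1q21.3 were wide, with a median of 912.5 bp, and widths alone would have given 62.5%. Within width groups the band missed the threshold (exact Mantel-Haenszel test, adjusted p = 0.0560). By that exact test 0.347% of bands were called lower, namely 8p23.1 with 8 members among 22 regions (adjusted p = 0.0353), and 0.347% higher, namely 16q12.1.

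Members were counted next in the bands that hold genes of squamous biology. Each listed gene was placed in its cytogenetic band from general knowledge, and a band spans many genes, so no region is assigned to a gene by this count. Over 75 bands of 102 genes, 1463 of 2292 CAL27 regions were CAL27-only, or 63.8% (95% exact interval 61.8 to 65.8), against 68.6% (67.8 to 69.5) in the bands of no list. Of these 75 bands 48 lay below and 27 above the 67.8% of the whole list, while over all 777 bands 375 lay below and 402 above. The median was 63.5% over 54 list bands with at least 20 regions and 68.7% over all 288 such bands. None of the list bands passed Fisher's exact test after adjustment. The regions in list bands were also wider, with a median of 823 bp against 784 bp, and widths would have given 66.3% and 68.1%. The part of width in the shares of single lists was not tested.

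Among the bands with genes of keratinocyte adhesion, 12 of 16 lay below the whole-list share, and the 16 together had 62.6% (58.6 to 66.5). From the widths of their regions these bands would have had 65.4%, which lies inside that interval. The lowest band was 6p24.3, that of the desmosomal linker desmoplakin (DSP) and of the epidermal regulator TFAP2A. There 7 of 20 regions were CAL27-only (35%, 15.4 to 59.2, adjusted p = 0.217 by Fisher's exact test). In 17q21.33, with the laminin receptor subunit ITGA3, 10 of 20 were. The highest among those with at least 20 regions was 17q25.1, with the hemidesmosome integrin ITGB4, where 38 of 49 were CAL27-only (77.6%, 63.4 to 88.2). In 18q12.1, which holds the desmosomal cadherin cluster, 12 of 17 were.

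Both keratin bands lay below the whole-list share. Together they had 59.7% (47.9 to 70.8), and widths would have given 64.0%, inside that interval. The type II band 12q13.13, with KRT5, the basal keratin, had 19 members among 32 regions (59.4%, 40.6 to 76.3). The type I band 17q21.2, with its partner KRT14, had 27 among 45 (60.0%, 44.3 to 74.3). At 10.8 members per Mb, 17q21.2 followed 7p22.3, with 13.6, and 11q13.1, with 12.0, in member density among bands of at least 2 Mb. Band 11q13.1 holds OVOL1, an epidermal differentiation regulator, and FOSL1, an AP-1 subunit, and 30 of its 53 regions were CAL27-only.

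For the p53 family and its targets, 8 of 11 bands lay below. Together these bands had 63.1%, and widths would have given 67.3%. Band 3q28, which holds TP63 itself, had 21 members among 34 regions (61.8%, 43.6 to 77.8), and 1p36.32, with the family member TP73, had 16 among 26 (61.5%, 40.6 to 79.8). In 6p21.2, with the cyclin kinase inhibitor gene CDKN1A, 15 of 27 regions were members (55.6%, 35.3 to 74.5). The highest was 12q15, with MDM2, the ubiquitin ligase that degrades p53, where 24 of 28 were (85.7%, 67.3 to 96.0; adjusted p = 0.645, Fisher's exact test). All 4 intervals include the 67.8% of the whole list.

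Bands of squamous regulators had 59.0% (54.3 to 63.6), with 11 of 14 below the whole-list share. Widths would have given 64.5% for these bands. Examples are 8q22.3, with the grainyhead factor GRHL2 (21 of 38 regions), 9q31.2, with KLF4 (11 of 20), and 13q22.1, with KLF5 (8 of 16). The band of FOXK1, the forkhead factor that the title of the study names beside p63, is 7p22.1, where 23 of 33 regions were CAL27-only (69.7%, 51.3 to 84.4). That of FOXK2, 17q25.3, had 47 of 73 (64.4%, 52.3 to 75.3). SOX2, often amplified with TP63, lies in 3q26.33, with 16 of 22.

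Bands of signalling genes were close to the rest of the genome, with 66.7% (63 to 70.3) and 10 of 22 below. In 7p11.2, with the growth factor receptor EGFR, 17 of 28 regions were members. Band 4q13.3, which holds the EGFR ligands AREG and EREG and the chemokines CXCL1 and CXCL8, had 11 of 23 (47.8%, 26.8 to 69.4). In 9q34.3, with NOTCH1, 28 of 43 were members, and in 6q27, with the Notch ligand DLL1, 30 of 36. The bands of mesenchymal genes had 62.3% (55.4 to 68.8), those of metabolism 64.2% (56.3 to 71.6) and those of immune genes 57.8% (47.7 to 67.6). Widths would have given 66.4% for signalling, 69.6% for mesenchymal genes, 66.5% for metabolism and 69.8% for immune genes.

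**Figure D5:**
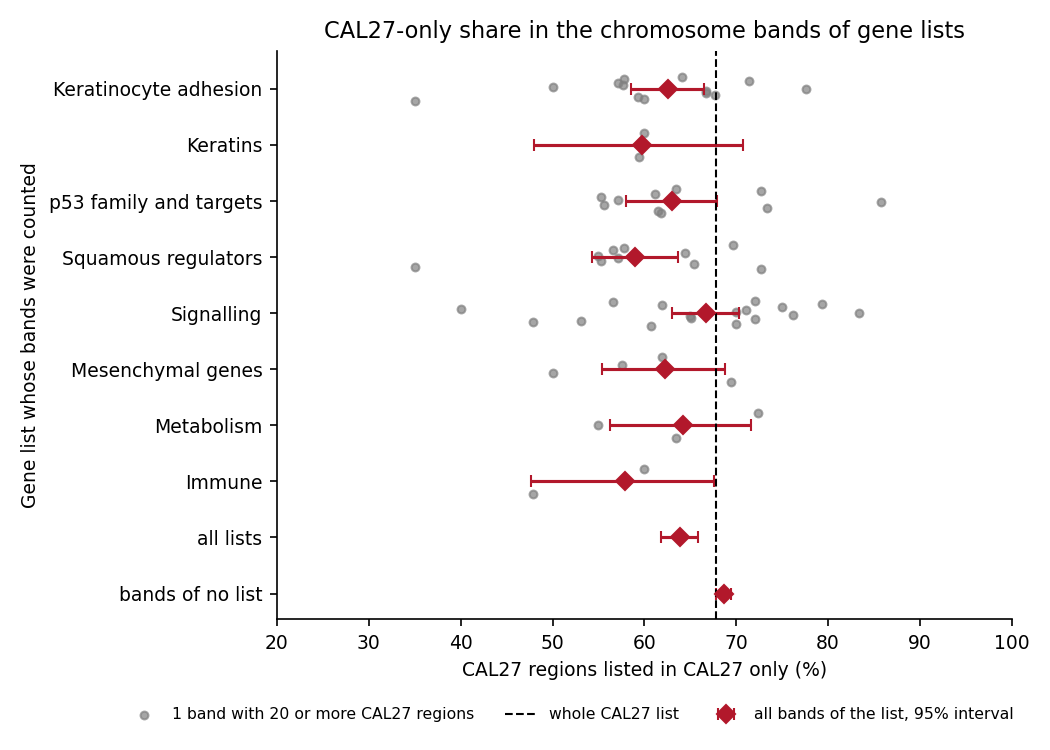
Percentage of CAL27 p63 regions listed in CAL27 only (horizontal axis, 20 to 100%) in the chromosome bands of each gene list (vertical axis); diamonds are all bands of a list with 95% exact binomial intervals, grey points single bands with 20 or more CAL27 regions, and the dashed line the 67.8% of the whole list. All 8 lists lie left of the line, from 57.8% for immune genes to 66.7% for signalling, and bands of no list lie at 68.6%.

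In number, members were most frequent in 1q32.1, which had 54 of them among 91 CAL27 regions, followed by 21q22.3 with 50 of 76 and 17q25.3 with 47 of 73. Members occurred in 770 of the 851 bands of the autosomes and X.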

How the data were processed

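Binding of p63 was measured by chromatin immunoprecipitation and sequencing. For each line the authors deposited coordinates of regions in 3 columns, without scores; per the submitters' processing notes Bowtie2, SAMtools 1.8, MACS2 and hg19 were used, without stated roles. Peak thresholds, pooling of replicates and the role of the samples with the title none: not given in the sources used here. Positions are printed counted from 1, in hg19.

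CAL27 regions with no overlap of 1 bp or more with an SCC13 region were the members. Their share was compared between each chromosome, 10 Mb window or band and the rest of the CAL27 list by two-sided Fisher's exact test, adjusted by Benjamini-Hochberg, with a threshold of 0.05; windows and bands needed 20 CAL27 regions. An exact conditional Mantel-Haenszel test within 10 groups of width, the band tests, and the descriptions by width group, neighbour, crowding and gene band were added after the data were examined. Intervals are exact Clopper-Pearson at 95% for percentages and the normal approximation for differences, and cover counting error only. Functions were tested on simulated data.

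Bands and chromosome lengths of hg19 came with the R package circlize 0.4.16 (R 4.3.3). An hg19 sequence or gene annotation was not used here, so no sequence, motif or gene model is reported; location and motif content had been planned. Genes were placed in bands from general knowledge, with 5 genes of the lists left out as lying near band borders. Named regions were the 10 widest, closest and farthest members, the groups, runs and spans that ranked first, and the places that passed. In addition the narrowest member and some bands were chosen after their values were seen. The members and lists were chosen with earlier results of these data known. Calculations used Python 3.11.15, numpy 2.4.6, scipy 1.17.1, pandas 2.3.3, statsmodels 0.14.6 and matplotlib 3.10.9.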

Additional observations from a re-analysis of the deposited data

How the results depend on the processing

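No paired analysis was possible because the replicates of each line stand behind 1 list; for the same reason none was left out, and stricter thresholds, location and motifs were not run. The 9381 members stay the same at 50% reciprocal overlap by construction, since overlapping regions are identical. They numbered 9285 or 8540 when SCC13 regions within 1 kb or 10 kb counted as matches, 9191 without X and 3840 above the median CAL27 width, where fewer regions enter. The 4 chromosome calls became 1, chromosome 4, with neighbours within 12.5 kb counted once, and 2, chromosomes 4 and 12, above the median width. They became 5 when matches reached 10 kb, where chromosome 4 fell short (Fisher's exact test, adjusted p = 0.0797) and chromosomes 1 and 2 joined. Within width groups 5 passed, chromosomes 2, 4, 8, 9 and X. The 0 window calls became 1 with 5 Mb windows, 1 with windows shifted by 5 Mb, both holding part of 1q21.3, and 4 within width groups. The 1 band call became 2 within width groups, 8p23.1 and 16q12.1. The call of band 1q21.3 held with neighbours counted once (31.1%, Fisher's exact test, adjusted p = 0.00109), and 0 bands passed above the median width (29.7% in 1q21.3, adjusted p = 0.172). Groups of members numbered 8, against 2 joined within 5 kb, 68 within 25 kb and 112 with 3 or more regions, as the joining rule dictates. The share on X was above that of the other chromosomes, and below it within width groups (68.3%, exact Mantel-Haenszel test, adjusted p = 0.0113) and above the median width (40.3%, Fisher's exact test, adjusted p = 0.0585). Among the chromosomes and bands that passed with or without width groups, no other changed direction under the alternatives in which it was tested. Bands 16q12.1 and 8p23.1 were not tested under every alternative, and single windows are not covered by this statement. Causes of the other changes were not tested.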
